A study of Homo sapiens with 6 samples.

Results

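This section describes the genes of the proteasome, of its activators and assembly chaperones, and of the NFE2L1 pathway that controls their transcription, in U2OS cells, an established human osteosarcoma line. Members were rows of the deposited table whose gene name is that of a PSMA to PSMG gene, or ADRM1, SHFM1, POMP, PAAF1, NFE2L1 or DDI2, with a mean normalised read count of at least 100 over all libraries. Of 56 rows with such names 50 passed, among the 57820 annotated genes of the table. PSMD9, with a mean normalised count of 127, stood just inside this limit, and PSMB9, with 83.4, just outside it. Polyadenylated RNA was sequenced after 4 h with 5 µM NMS-873, an allosteric inhibitor of the ATPase VCP (p97), or with 0.05% DMSO, the solvent, with 3 libraries per treatment and no other agent or genetic change in any of them. Whether libraries of the same treatment stem from different cultures is not stated in the labels. The p-values therefore rest on the spread between these libraries, part or all of which may be technical. In the main test this spread is taken mostly from a trend over all tested genes. The spread of a gene's own libraries thus weighs little in its p-value.

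The proteasome is the barrel-shaped protease that degrades proteins tagged with ubiquitin. Its core is built from alpha rings, which gate the entrance, and beta rings, which hold the cutting sites; a regulatory particle on top has a base of ATPases that unfold substrates and a lid that removes their ubiquitin. NFE2L1 (also called NRF1) is a transcription factor made as an ER membrane glycoprotein. It is normally extracted by VCP and degraded; when proteasome activity is low, the protease DDI2 cleaves it, and the released factor enters the nucleus and activates proteasome genes through antioxidant response elements. VCP thus acts both before the proteasome, as the enzyme that hands it substrates, and in the making of its transcriptional regulator.

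Each library held between 21132311 and 22488952 reads in annotated genes, of which the 50 members took 0.842% to 0.914%. The deposited values are scaled to spike-in RNA, and on this scale the median of the 14889 tested genes lay at a log2 fold change of -0.10 between NMS-873 and DMSO. Libraries also differed within a treatment. The median member lay 0.13 (log2) below the DMSO mean in NMS-873 replicate 1, against 0.03 below it in each of replicates 2 and 3, and it lay 0.07 above it in DMSO replicate 3. NMS-873 replicate 1 was the lowest NMS-873 library for 44 of the 50 members, and DMSO replicate 3 the highest DMSO library for 42. The median of all tested genes moved with them, at -0.14 in NMS-873 replicate 1 and 0.04 in DMSO replicate 3, so counts of members called are also given without these libraries. SPARC and COL1A1, markers of the bone lineage, averaged 437 and 196 FPKM (fragments scaled to exon length and, in this table, to the same spike-in factors), RUNX2 and ALPL were low at 0.965 and 4.48 FPKM, and TWIST1 had no read; COL1A1, RUNX2 and ALPL fell with NMS-873 on the spike-in scale, SPARC did not pass the test, and their part in the results below was not tested. In bulk RNA a lower share of some cells and less RNA per cell cannot be told apart. PTPRC, a leukocyte marker, and EPCAM, an epithelial one, stood at 0.0565 and 1.37 FPKM, and ALB and CD3E, of hepatocytes and T cells, had no read.

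**Figure D1:**
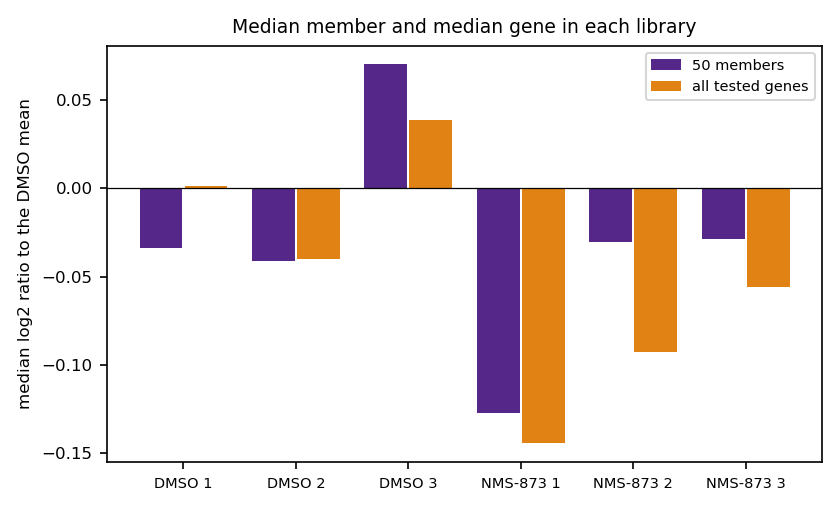
Median log2 ratio to the DMSO mean in each of the 6 libraries (y axis), for the 50 members (purple) and for all tested genes (orange). NMS-873 replicate 1 is the lowest library for both, at -0.13 and -0.14, and DMSO replicate 3 the highest, at 0.07 and 0.04.

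With VCP inhibited, the genes of the proteasome particle hardly moved, while DDI2, the protease that activates NFE2L1, fell 1.49-fold, and NFE2L1 itself did not pass the test. Of the 50 members, 1 rose, PSME4, and 8 fell: DDI2, PSMG4, PSME2, PSMB6, PSMB8, PSMG3, PSMD1 and PSMF1 (limma on log2 of normalised count + 1, adjusted p under 0.05 over all tested genes). These are 2.00% and 16.0% of the members, where 14.9% of all tested genes rose and 33.0% fell, 47.9% in either direction; on this scale both shares of the members lie below that background. Libraries of the treatments did not overlap for 1 member with NMS-873 above DMSO and for 14 with it below, where 16.4% and 37.2% of all tested genes did so. Over all 50 members, of which 41 were not called, changes were small: 47 lay within 0.2 of 0 on the log2 scale. Outside this range were DDI2 (-0.58), PSMG4 (-0.32) and PSMD9 (-0.24, not called). None reached 1.5-fold, with DDI2 just below at 1.49-fold. The median member was at -0.07, above the median gene at -0.10. For the 34 uncalled members with a DMSO mean of at least 1000 normalised counts, the 95% intervals all lay between -0.23 and 0.22 on the log2 scale. These intervals hold for the spike-in scale and leave out the choice of scaling. With gene-based size factors the interval of PSMD7, which is among the 34, ran from 0.14 to 0.29.

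The side on which members are called depends on the scaling. With size factors computed from the genes, which put the median gene at 0.00, 12 members (24.0%) rose and 2 (4.00%), DDI2 and PSME2, fell, against 25.3% and 20.8% of all genes, and the median member was at 0.04. TMM factors gave 11 higher (22.0%) and 2 lower (4.00%), against 24.8% and 21.1% of all genes. Scaling to equal totals gave 3 (6.00%) and 17 (34.0%), against 16.6% and 35.7%. Quantile normalisation gave 4 (8%) and 16 (32.0%), against 20.7% and 27.6%. The share of members that rose was thus close to the background with gene-based and TMM factors, and the share that fell was close to it with equal totals and above it after quantile normalisation. The median member lay 0.04 above the median gene with the spike-in, gene-based, TMM and equal-total scalings, and 0.03 below it after quantile normalisation. Without DMSO replicate 3, 3 of the 50 members rose and 4 fell, beside 2235 and 3988 of all 14847 genes tested. Without NMS-873 replicate 1, 4 members rose and 4 fell, beside 2401 and 4193 of 14937 genes. Without both libraries, 8 members rose and 3 fell, beside 2624 and 3718 of 14890 genes. In the authors' deposited table, 6 members have an adjusted p below 0.05: PSME4 is higher and DDI2, PSME2, PSMB6, PSMD1 and PSMG3 are lower, where 11.2% and 22.0% of the 16563 genes with a deposited adjusted p are. All 6 were also called here.

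**Figure D2:**
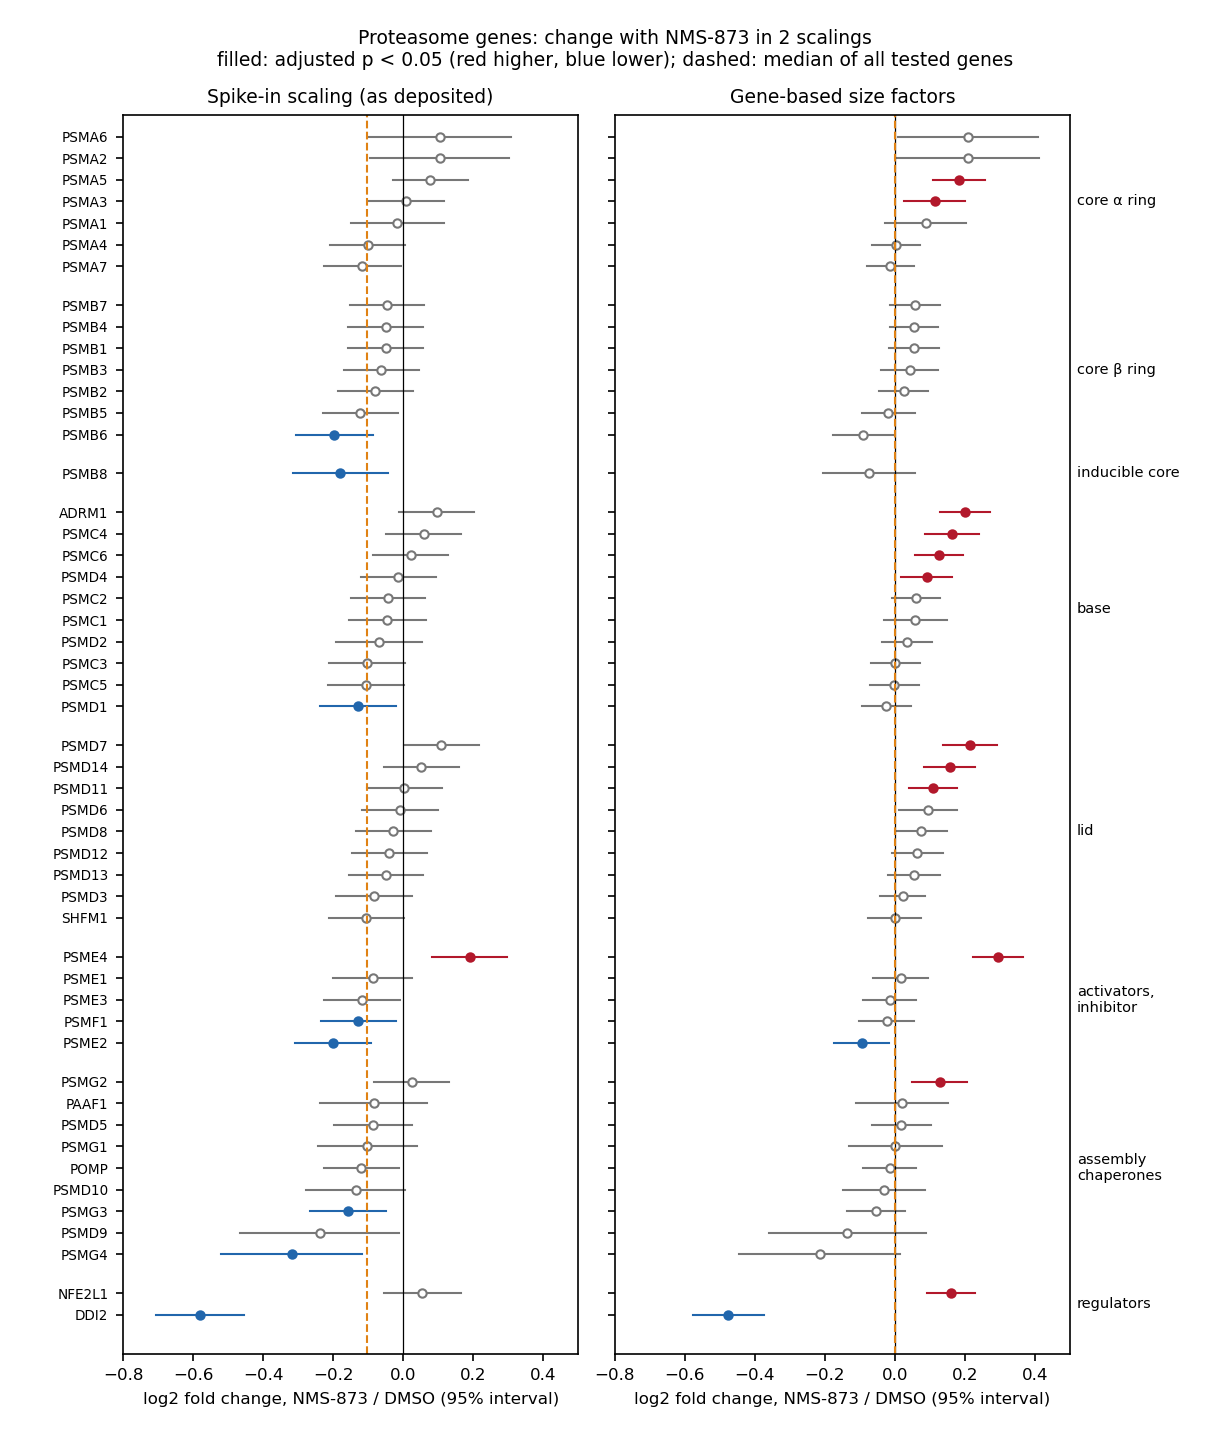
Log2 fold change (x axis) of the 50 members by subcomplex, with 95% intervals, on the deposited spike-in scale (left) and with gene-based size factors (right); filled points passed an adjusted p of 0.05 and the dashed line is the median of all tested genes. On the left 1 member rose and 8 fell; on the right 12 rose and 2 fell, and DDI2 and PSME4 stand at the ends in both.

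DDI2 (ENSG00000197312.7; chromosome 1, 15943995 to 15995539, plus strand, hg19) changed most. It was at 875, 895 and 875 normalised counts in the DMSO libraries and at 570, 604 and 595 in the NMS-873 libraries. All NMS-873 libraries lay far below all DMSO libraries. The means were 882 ± 11.3 and 590 ± 17.3 (SD, n = 3 libraries each), a log2 fold change of -0.58 (SE 0.0643, adjusted p = 9.37e-16 in limma), and DDI2 passed under all 19 alternatives, at values between -0.60 and -0.48. Without the variance trend its adjusted p in limma was 4.60e-04. RSC1A1, a row of the same strand that lies within 3.60% of the DDI2 span, had no read. DDI1, the testis homologue of DDI2, had no read in any library. The RefSeq bases before the DDI2 start, which hold no match to the antioxidant response element core described below, are shown because it is the member that moved furthest (chr1:15617208-15617457, plus strand, GRCh38.p14, a build that differs from that of the deposited coordinates).
DDI2 promoter: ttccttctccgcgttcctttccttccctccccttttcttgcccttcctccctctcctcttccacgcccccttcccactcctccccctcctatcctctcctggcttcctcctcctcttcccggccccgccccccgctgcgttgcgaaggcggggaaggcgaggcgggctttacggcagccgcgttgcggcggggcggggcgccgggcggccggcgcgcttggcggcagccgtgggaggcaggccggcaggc

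NFE2L1 (ENSG00000082641.11; chromosome 17, 46125691 to 46138849, plus strand, hg19) was at 8812, 8189 and 8874 normalised counts with DMSO and at 8888, 8701 and 9282 with NMS-873. The groups overlapped, with DMSO replicate 2 the lowest library and NMS-873 replicate 3 the highest. Its log2 fold change was 0.05 (95% interval -0.06 to 0.17, adjusted p = 0.434 in limma). Under gene-based size factors limma gave 0.16 (adjusted p = 3.54e-04), and the same value under TMM factors (adjusted p = 4.80e-04), so that it was called higher relative to the median gene; it was not called with equal totals or after quantile normalisation (adjusted p = 0.159 and 0.667). Per length, NFE2L1 averaged 69.1 FPKM and DDI2 2.77 FPKM.

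**Figure D3:**
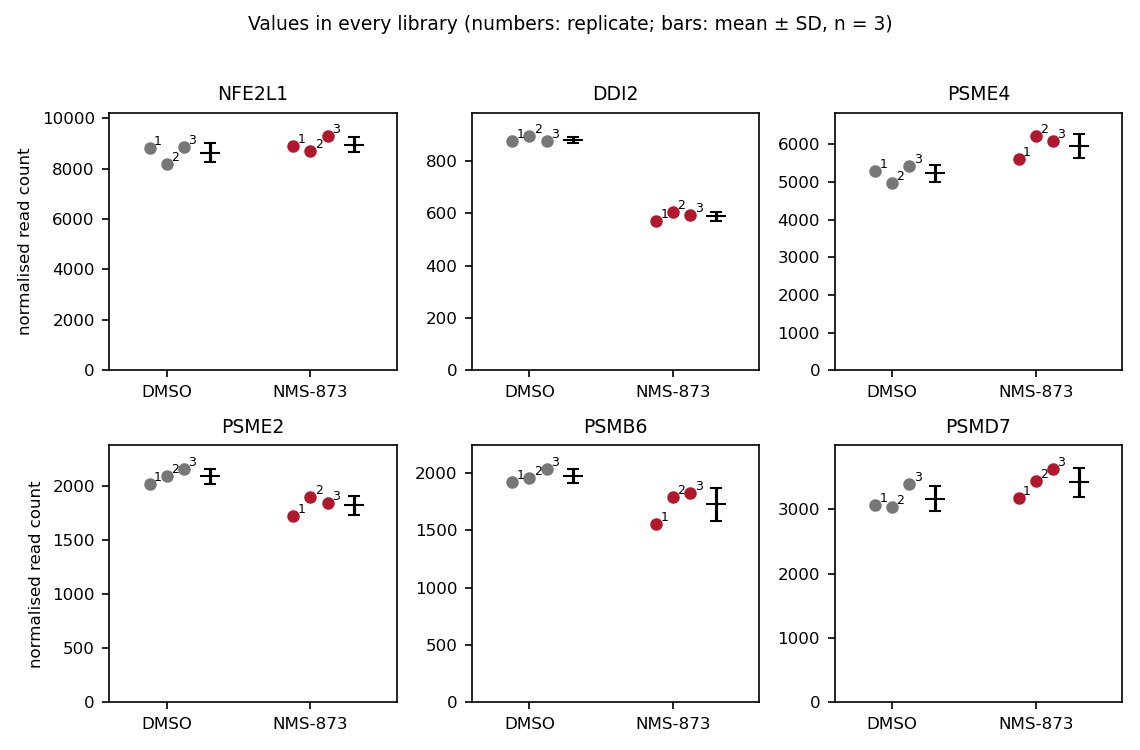
Normalised read counts (y axis, from 0) of 6 members in each library, labelled by replicate, with mean ± SD beside them (n = 3). DDI2, PSME2 and PSMB6 lie lower in every NMS-873 library than in any DMSO library on this spike-in scale, PSME4 lies higher, and NFE2L1 and PSMD7 overlap.

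Of the 14 ring genes of the core 1 passed, in the beta ring, where 47.9% of all tested genes passed. All 7 beta ring genes (PSMB1 to PSMB7) had values below 0 on the spike-in scale, between -0.20 and -0.05, and 1 passed. With gene-based size factors PSMB5 and PSMB6 stayed below 0 and the ring's median was 0.04. None of the ring passed on that scaling, where 25.3% of all genes rose and 20.8% fell. PSMB6, which encodes the caspase-like subunit, was at 1924, 1956 and 2037 normalised counts with DMSO and at 1558, 1793 and 1824 with NMS-873. The groups did not overlap, and NMS-873 replicate 1 was the lowest. It fell 1.15-fold (log2 fold change -0.20, SE 0.0560, adjusted p = 0.00182 in limma), and without NMS-873 replicate 1 it no longer passed. PSMB5, the chymotrypsin-like subunit and the target of clinical proteasome inhibitors, just missed the threshold at -0.12 (adjusted p = 0.0505), also with separate groups. PSMB7, the trypsin-like subunit, was the highest of the ring at -0.05, with 3243, 3122 and 3420 normalised counts with DMSO and 3001, 3244 and 3225 with NMS-873, which overlap. The structural subunits PSMB1, PSMB2, PSMB3 and PSMB4 lay between -0.08 and -0.05.

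None of the 7 alpha ring genes passed, where 47.9% of all tested genes did, and their median was 0.01. This median includes PSMA1, PSMA2 and PSMA6, which share their loci with second rows and are uncertain, as described below. Without these genes PSMA5 was the highest of the ring, at 0.08. PSMA7 was the lowest at -0.12, with 8839, 8511 and 9191 normalised counts with DMSO and 7704, 8197 and 8578 with NMS-873; the groups overlapped by the second DMSO and the third NMS-873 library (adjusted p = 0.0722). PSMA6 was the highest at 0.11, with 175, 151 and 164 normalised counts with DMSO and 186, 166 and 174 with NMS-873, also overlapping. PSMA4, at -0.10, and PSMA1, PSMA3, PSMA5 and PSMA2, between -0.02 and 0.10, lay between them. With gene-based size factors 2 of the 7 alpha subunits, PSMA3 and PSMA5, rose and 0 fell, where 25.3% and 20.8% of all genes did.

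PSMB8, the inducible subunit that replaces PSMB5 in the immunoproteasome of interferon-treated and antigen-presenting cells, was the only inducible core gene above the count limit. It was at 605, 634 and 631 normalised counts with DMSO and at 550, 600 and 505 with NMS-873. Here replicate 3 was the lowest NMS-873 library, and the groups did not overlap. PSMB8 fell 1.13-fold (log2 fold change -0.18, SE 0.0683, adjusted p = 0.0224 in limma), and was not called under gene-based size factors, nor when DMSO library 2, DMSO library 3 or NMS-873 library 3 was left out. Its partners PSMB9 and PSMB10 lay between 62.2 and 119 and between 38.3 and 64.7 normalised counts. The thymus subunit PSMB11 was at most at 1.03, the testis subunit PSMA8 had no read, and the other rows below the limit were second rows for the PSMA1 and PSMA2 loci.

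Of the 10 genes of the base 1 fell, where 33.0% of all tested genes did. PSMD1, a large scaffold subunit, was at 7313, 7329 and 7999 normalised counts with DMSO and at 6578, 7078 and 7044 with NMS-873. The groups did not overlap, but the fall of 1.09-fold (log2 fold change -0.13, SE 0.0552, adjusted p = 0.0438 in limma) no longer passed without DMSO replicate 1 or 3 or without any one of the NMS-873 libraries. ADRM1, a ubiquitin receptor, was the highest of the base at 0.10 (95% interval -0.01 to 0.20): it was at 5124, 5166 and 5676 normalised counts with DMSO and at 5447, 5674 and 5938 with NMS-873. The ATPases PSMC1 to PSMC6 lay between -0.11 (PSMC5 and, at -0.10, PSMC3) and 0.06 (PSMC4), and none passed. PSMD2, the other scaffold, was at -0.07 and PSMD4, a second ubiquitin receptor, at -0.01. With gene-based size factors 4 of the 10 base genes, ADRM1, PSMC4, PSMC6 and PSMD4, rose and 0 fell, where 25.3% and 20.8% of all genes did.

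None of the 9 lid genes passed, where 47.9% of all tested genes did, and their median was -0.03. PSMD7, the partner that holds the deubiquitylase in place, was the highest at 0.11: it was at 3069, 3045 and 3391 normalised counts with DMSO and at 3183, 3438 and 3633 with NMS-873. DMSO replicate 3 overlapped the NMS-873 libraries (adjusted p = 0.0856), and PSMD7 passed as a rise when either DMSO replicate 3 or NMS-873 replicate 1 was left out, and under the gene-based, TMM, equal-total and quantile scalings. The deubiquitylase itself, PSMD14, was at 0.05 and, with gene-based size factors, rose (0.16, adjusted p = 8.47e-04 in limma), as did PSMD11 (0.11, adjusted p = 0.00983). On the spike-in scale the small subunit SHFM1 (SEM1) was at -0.11. SHFM1 was at 2164, 2111 and 2313 normalised counts with DMSO and at 2025, 2005 and 2091 with NMS-873, groups that did not overlap though the test was not passed (adjusted p = 0.102). The scaffold subunits PSMD3, PSMD6, PSMD8, PSMD11, PSMD12 and PSMD13 lay between -0.08 and 0.00. Over the core rings, base and lid together, 0 of 33 subunits rose and 2 fell, where 14.9% and 33.0% of all tested genes did; with gene-based size factors 9 rose and 0 fell, where 25.3% and 20.8% of all genes did. Groups did not overlap for 8 of the 33, all with NMS-873 below DMSO, against 37.2% of all tested genes in that direction.

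Of the 5 activator and inhibitor genes 1 rose and 2 fell, where 14.9% and 33.0% of all tested genes did. PSME4 (PA200; ENSG00000068878.10; chromosome 2, 54091204 to 54197977, minus strand, hg19), a large cap of the core that works without ATP and is known from the degradation of acetylated histones, was the one member that rose. It was at 5284, 4975 and 5419 normalised counts with DMSO and at 5602, 6207 and 6079 with NMS-873. All NMS-873 libraries lay above all DMSO libraries. The rise was 1.14-fold (log2 fold change 0.19, SE 0.0544, adjusted p = 0.00195 in limma), it was called under 18 of 19 alternatives, with values between 0.15 and 0.29, and it was missed without the variance trend (adjusted p = 0.0603). PSME2, the beta subunit of the interferon-inducible PA28 cap, fell 1.15-fold: it was at 2024, 2092 and 2162 normalised counts with DMSO and at 1727, 1896 and 1846 with NMS-873 (log2 fold change -0.20, SE 0.0552, adjusted p = 0.00129 in limma). These groups did not overlap either, and PSME2 was called lower under all 19 alternatives, at values between -0.23 and -0.10. It passed narrowly with gene-based size factors (adjusted p = 0.0454 in limma), with TMM factors (0.0429) and without the variance trend (0.0402). Its partner PSME1, which neighbours it on chromosome 14, was at -0.09 with separate groups and did not pass (adjusted p = 0.201), and PSME3, the nuclear cap subunit, was at -0.12 (adjusted p = 0.0637). PSMF1, an inhibitor of the core, was at 2331, 2315 and 2582 normalised counts with DMSO and at 2102, 2264 and 2244 with NMS-873, a 1.09-fold fall (adjusted p = 0.0435 in limma) with separate groups that no longer passed without DMSO replicate 1 or 3 or NMS-873 replicate 1 or 2.

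Of the 9 assembly chaperones 0 rose and 2 fell, where 14.9% and 33.0% of all tested genes did. Both that fell are of the PSMG family that builds the alpha ring. PSMG3 was at 2359, 2151 and 2451 normalised counts with DMSO and at 1964, 2178 and 2093 with NMS-873, a 1.12-fold fall (adjusted p = 0.0119 in limma) whose groups overlapped. PSMG4 was low, at 216, 204 and 180 normalised counts with DMSO and 187, 143 and 152 with NMS-873, a 1.25-fold fall (log2 fold change -0.32, SE 0.102, adjusted p = 0.00582 in limma), also with overlapping groups. Neither passed with gene-based size factors; PSMG3 did not pass without DMSO replicate 1 or 3 or NMS-873 replicate 1, nor PSMG4 without DMSO replicate 1 or NMS-873 replicate 2. PSMG2, which pairs with PSMG1, was the highest at 0.02, with 2890, 2799 and 3076 normalised counts with DMSO and 2725, 3099 and 3096 with NMS-873; with gene-based size factors it was called higher (0.13, adjusted p = 0.00718 in limma). POMP, the maturation factor of the beta ring, was at -0.12 (adjusted p = 0.0629). PSMG1 and the chaperones of the base, PSMD5, PSMD9, PSMD10 and PAAF1, lay between -0.24 and -0.08 and did not pass.

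The members differ more in level than in response. The subunits of the core rings are needed in equal numbers, yet their FPKM values, which are per length, ranged from 41.3 (PSMA5) to 222 (PSMA7) in the alpha ring without PSMA1, PSMA2 and PSMA6, and from 59.6 (PSMB6) to 149 (PSMB3) in the beta ring, 2.50-fold. The base ranged from 27.2 (PSMC6) to 173 (PSMD2) and the lid from 10.1 (PSMD6) to 78.6 (PSMD8). These orders are descriptive, and neighbours such as PSMB7 (68.2) and PSMB5 (68.9) lie within the spread of their libraries. The divisor is the exon length of the gene model, which runs from 1179 bases for PSMB3 to 9095 for PSMD6 among these subunits.

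PSMA1, PSMA2 and PSMA6 stood far below the other alpha subunits, at 7.86, 1.53 and 1.20 FPKM. Each shares its locus with a second row of the table on the same strand: a second PSMA2 row covers 99.7% of the PSMA2 span, a row named KIAA0391 covers 99.95% of the PSMA6 span, and a second PSMA1 row covers 17.7% of the PSMA1 span. These rows averaged 0.989, 2.50 and 0 normalised counts. PSMD9, the lowest assembly chaperone at 0.664 FPKM, lies under such a row for 99.7% of its span too. The sources used here do not give how reads shared by both rows were counted. The levels of these 4 genes, and the fold changes computed from them, are therefore uncertain. PSMD2 lies wholly within the span of EIF2B5 on the same strand, at 2086 normalised counts, and PSMD2 was not low. The table also has 31 pseudogene rows named after members, which together averaged 37.5 normalised counts against 191151 for the members.

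**Figure D4:**
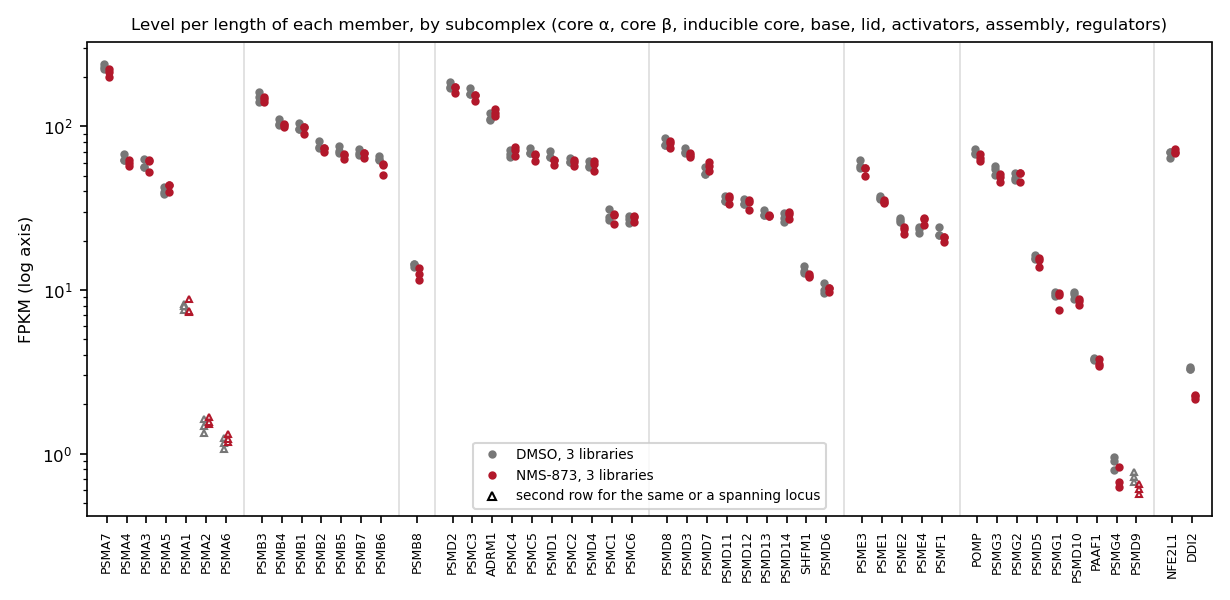
FPKM on a log axis of each member in the 3 DMSO (grey) and 3 NMS-873 (red) libraries, ordered by level within each subcomplex; open triangles mark PSMA1, PSMA2, PSMA6 and PSMD9, which share their locus with a second row of the table. Treatments lie close together for most members, DDI2 being furthest apart, while subunits of one ring differ, with PSMA7 at 222 and PSMA5 at 41.3.

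NFE2L1 binds antioxidant response elements, so the core of that element, TGACNNNGC on either strand, was looked for in the RefSeq promoters (250 bases before and 50 after each start, GRCh38.p14). SHFM1 was matched as SEM1, and 44 of the 50 members were matched; PSMA7, PSMB1, PSMB6, PSMB7, PSMD4 and PSMG3 were not. The core was found for 16 of the 44 members, 36.4%, where 19.3% of the tested genes in the table and 16.1% of all its genes have it. By promoter, it was in 29.8% of the 57 promoters of members and in 13.3% of all 35116. It was found for 9 of 28 particle subunits, of which 1 is an alpha, 1 a beta, 4 are base and 3 lid genes, and for 3 of the 5 activator and inhibitor genes. A match is a description of letters, not a site of binding. Of the sites before the start in particle subunits, 6 from the core, base and lid are printed as examples of the match. They read along the gene, with the match in capitals, and the site of SHFM1 is not shown. Whether NFE2L1 acts on any of these sites was not tested.
PSMA4: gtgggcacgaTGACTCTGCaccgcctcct
PSMB3: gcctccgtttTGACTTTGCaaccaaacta
ADRM1: cgctcccctaTGACACAGCaacaataggg
PSMC5: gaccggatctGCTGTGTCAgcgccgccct
PSMD3: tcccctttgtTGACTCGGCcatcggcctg
PSMD12: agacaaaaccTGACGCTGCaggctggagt

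These windows lie at chr15:78540650-78540678 (PSMA4), chr17:38752627-38752655 (PSMB3), chr20:62302749-62302777 (ADRM1), chr17:63827654-63827682 (PSMC5) and chr17:39980760-39980788 (PSMD3), all on the plus strand, and at chr17:67366724-67366752 on the minus strand (PSMD12). Of the 2 activators that were called, PSME2 has the core at chr14:24146767-24146795 and PSME4 within chr2:53970994-53971243, both on the minus strand.
PSME2: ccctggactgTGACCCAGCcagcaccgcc
PSME4 promoter: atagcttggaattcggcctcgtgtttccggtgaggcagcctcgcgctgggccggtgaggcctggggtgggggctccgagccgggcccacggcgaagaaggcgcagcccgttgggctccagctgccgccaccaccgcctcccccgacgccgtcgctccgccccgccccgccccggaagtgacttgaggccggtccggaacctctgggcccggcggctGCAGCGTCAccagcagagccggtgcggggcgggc

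The medians of members with and without the core lay close together. The 16 members with it had a median log2 fold change of -0.09, from -0.24 (PSMD9, an uncertain row) to 0.19 (PSME4). Of these 16, 1 was called higher and 2 lower, PSME2 and PSMD1. The 28 without it had a median of -0.05, with 0 called higher and 4 lower. Of all tested genes 14.9% rose and 33.0% fell. The core is in the PSME2 promoter, which belongs to a gene that fell, and in that of PSME4, which rose.

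Among the relatives and partners of NFE2L1 several transcripts changed more than 1.5-fold. Of 7 tested genes in a list of CNC, BACH and small MAF factors with KEAP1, 5 rose and 1 fell (all tested genes: 14.9% and 33.0%), the same count under the gene-based, TMM, equal-total and quantile scalings and with any single library left out. MAFF, a small MAF protein that pairs with NFE2L1 and NFE2L2 on DNA, rose 3.29-fold (log2 fold change 1.72, adjusted p = 2.18e-82 in limma): it was at 773, 716 and 860 normalised counts with DMSO and at 2485, 2567 and 2675 with NMS-873. NFE2L2 (NRF2), the relative of NFE2L1 that governs the oxidative stress response, rose 2.16-fold, from 1692, 1691 and 1842 normalised counts to 3587, 3828 and 3879. Its 95% interval, 1.01 to 1.22 on the log2 scale, lies above that of NFE2L1. BACH1, a repressor of the same elements, rose 1.71-fold, and MAFG and MAFK rose 1.43-fold and 1.18-fold. KEAP1, the adaptor that targets NRF2 for degradation, fell 1.34-fold (log2 fold change -0.42, adjusted p = 9.82e-11 in limma). BACH2 was at -0.03 and did not pass (adjusted p = 0.854); NFE2 averaged 1.68 normalised counts with DMSO and was too low to test, and NFE2L3 had no read.

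Of 13 tested genes that process or control NFE2L1, 6 rose and 0 fell (all tested genes: 14.9% and 33.0%), and with gene-based size factors 7 rose and 0 fell (25.3% and 20.8%). SYVN1 and SEL1L, the ubiquitin ligase and adaptor that carry NFE2L1 out of the ER, rose 3.89-fold and 2.65-fold; OGT, the sugar transferase that modifies it, rose 1.55-fold, and UBXN7, USP15 and VCP rose 1.27-fold, 1.21-fold and 1.17-fold. NGLY1, which strips its glycans before DDI2 can cut, was at 0.02 (adjusted p = 0.785), and the ubiquitin ligase subunits FBXW7 and BTRC were at 0.11 and -0.13 without passing. The lowest value among these 13 genes was -0.13, where DDI2 stood at -0.58; with equal totals 2 of the 13 fell and with quantile normalisation 1. Of 17 tested genes for proteasome-associated receptors, shuttles and deubiquitylases, 5 rose and 2 fell (all tested genes: 14.9% and 33.0%), and 9 and 0 did with gene-based size factors (25.3% and 20.8%). ZFAND2A, an arsenite-inducible zinc finger protein that binds the proteasome, rose 2.35-fold, ZFAND5, which activates it, 1.24-fold, and AKIRIN2, which carries proteasomes into the nucleus, 1.20-fold. UBE3A, a ubiquitin ligase, and UBQLN1, a shuttle, rose 1.19-fold and 1.12-fold, and PITHD1 fell 1.15-fold. The deubiquitylases of the particle, USP14 and UCHL5, were at 0.02 and 0.01 and did not pass.

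**Figure D5:**
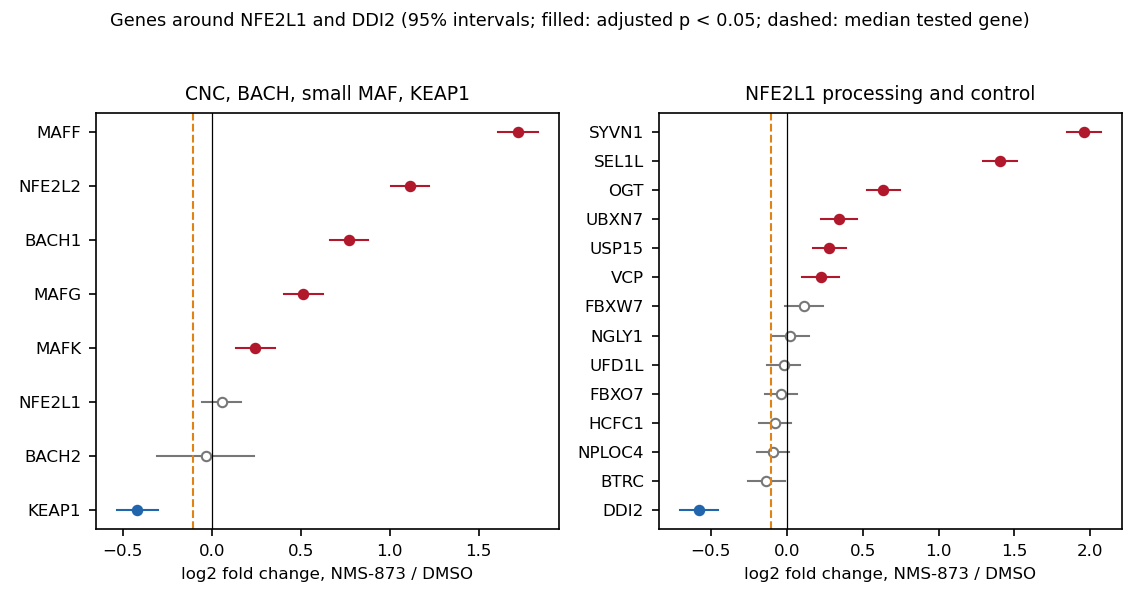
Log2 fold change with 95% interval (x axis) of NFE2L1 among the CNC, BACH and small MAF factors with KEAP1 (left), and of DDI2 among genes that process or control NFE2L1 (right); filled points passed an adjusted p of 0.05 and the dashed line is the median tested gene. MAFF and NFE2L2 stand at 1.72 and 1.11, NFE2L1 at 0.05 and DDI2 at -0.58.

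Other large complexes, listed for comparison, also had medians near 0. The COP9 signalosome, whose subunits resemble those of the lid, had 1 of 9 genes higher and 3 lower, with a median of -0.09; eIF3, the other complex of this architecture, had 1 of 13 higher and 0 lower, with a median of 0.01; and the CCT chaperonin had 0 of 8 called, with a median of -0.02, where 14.9% of all tested genes rose and 33.0% fell. The CCT genes lay between -0.10 and 0.05. With gene-based size factors 2 of 9, 9 of 13 and 5 of 8 genes of these complexes rose and 0 fell, where 25.3% and 20.8% of all genes did. The differences between these complexes and the proteasome were not tested.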

How the data were processed

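RNA-seq libraries of U2OS cells, 3 per treatment, were grouped by their titles. Per the submitters' processing notes, featureCounts 1.5.1 and DESeq2 1.16.1 were among the tools used, on build hg19; the aligner and the use of strand in counting are not given in the sources used here. The deposited sample columns hold FPKM values, which the file headers do not name. The deposited table also gives the mean normalised count over the libraries (a signal in reads after scaling), and the authors' own log2 fold change and adjusted p-value.

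Normalised counts were rebuilt from FPKM by each gene's deposited mean. Times the implied size factors, 100% came within 0.001 of whole reads, and the factors equal medians of ratios over the 92 spike-in rows (largest relative difference 1.1e-15). Genes with a mean of at least 10 (14889) entered a limma fit (3.58.1; R 4.3.3) of log2(normalised count + 1) on treatment alone, variance trend, two-sided, Benjamini-Hochberg adjusted. The prior degrees of freedom were 250.84, so the variance of each gene came mostly from the trend with its level. The design assumed normalised counts in the sample columns; rebuilding them kept its test. Fold changes on this scale understate those of low genes. Intervals cover 95%. The procedure was tested on simulated counts with a fixed spread and known size factors. That test does not cover the choice of scaling or libraries that stand apart.

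Members and lists were chosen with earlier results of these data known. Per-library values are given for NFE2L1, DDI2, called members and each subcomplex's extremes, and for listed partners at most the 6 lowest adjusted p; other genes were named after their values were seen. PECAM1 was not analysed here. One listed marker gene is not reported here. Without molecular identifiers, reads are not independent molecules and counting error understates the error. Replicates differed by a chi-square per degree of freedom of 1.47 to 7.27, so none was taken as a duplicate.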

Additional observations from a re-analysis of the deposited data

How the results depend on the processing

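The counts of members that rose and fell, 1 and 8 on the deposited scale, rest on small shifts against the threshold and on the scaling. They were 12 and 2 with gene-based size factors, 11 and 2 with TMM factors, 3 and 17 with equal totals, and 4 and 16 after quantile normalisation; 0 and 2 without the variance trend; and, with limma's p taken without adjustment, 2 and 13. On log2(FPKM + 0.1), 1 rose and 4 fell. Leaving out 1 library gave 1 to 4 higher and 4 to 10 lower, and leaving out both NMS-873 replicate 1 and DMSO replicate 3, which was added after seeing the data, gave 8 and 3. All tested genes split into 2217 higher and 4910 lower, 3761 and 3104 with gene-based size factors and 3701 and 3142 with TMM factors; leaving out 1 library gave 1875 to 2401 higher and 3988 to 4973 lower. Of 14889 genes, 1801 rose and 3706 fell without the variance trend, and 2444 and 5576 with p unadjusted. On log2(FPKM + 0.1) 1995 rose and 4340 fell. The fit without both libraries gave 2624 and 3718 of 14890. The log2 fold change of PSMD4 turned from -0.01, not called, to 0.0905 and called with gene-based size factors. DDI2 and PSME2 kept their call under all 19 alternatives, PSME2 only narrowly under some. The alternative with p unadjusted cannot lose a call made after adjustment. With the replicate number as a block, 2 of the 50 members rose and 13 fell, beside 2352 and 5255 of the 14889 tested genes. Same-numbered libraries deviated together only weakly, with correlations of 0.04, -0.03 and 0.04 over the genes. The numbers were not taken to pair the libraries. These correlations cannot show a shift shared by all genes of a library, so they do not settle whether the libraries are paired. Apart from the construction of the scalings and the smaller number of libraries, the cause of these shifts was not tested. The intervals of PSMA2, PSMA6, PSMG4 and PSMD9, the 4 members with the lowest mean counts, are the widest. The variance trend of the main fit ties the width of an interval to the mean count by construction. Any further part of depth in this was not tested.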
